A study of Rattus with 6 samples.

Results

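The genes described here are 9 components of the interferon response: the receptor genes Ifnar1 and Ifnar2, the signal transducer gene Stat2, and the interferon regulatory factor (IRF) genes Irf1, Irf2, Irf3, Irf5, Irf7 and Irf9. They were taken by gene name from the deposited expression table, where each of the 9 had 1 row among 54012. Irf7 was chosen by its low p-value in the comparison made here (rank 2 of 12080 genes), so its difference is given as a description, with no test. The other 8 were included as members of the same families and pathway.

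The samples were primary cultures labelled as vascular smooth muscle cells from aorta, and all of them were treated with angiotensin II (Ang II), the vasoconstrictor peptide of the renin-angiotensin system. The si-CDCP1 cultures (3 libraries, genotype label CDCP1 knockdown) had received an siRNA against CDCP1, a transmembrane glycoprotein phosphorylated by Src family kinases, before Ang II. The si-NC cultures (3 libraries, genotype label WT) had received a control siRNA. No culture without Ang II was analysed here, and the labels give neither the dose and time of treatment nor whether the replicates came from separate animals, so the p-values reflect variation among these libraries alone, and that variation may be technical. The organism label is rat, whereas the table holds mouse gene identifiers on the mouse build mm10. The species of the reads was not determined here.

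Type I interferons bind a receptor made of the IFNAR1 and IFNAR2 chains, which activate the kinases TYK2 and JAK1. These phosphorylate STAT2 and a partner STAT protein, which join IRF9 and move to the nucleus, where the complex binds interferon-stimulated response elements and switches on antiviral genes. Irf7 is one of the genes induced, and its protein in turn drives interferon-alpha genes, which closes a positive feedback loop. IRF3 is made constitutively and is activated by phosphorylation when nucleic acid sensors signal through TBK1.

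Expression is given as FPKM (fragment counts divided by the length of the gene and by a total for the library). Log2 differences (si-CDCP1 minus si-NC) were taken on log2(FPKM + 1), where changes of weakly expressed genes come out too small. The libraries held 16230958 to 17295710 reads in listed genes in si-CDCP1 and 16050517 to 19771638 in si-NC. The total implied by the FPKM was 15605289 for si-CDCP1 replicate 3, below its 16230958 reads in listed genes. In each of the other 5 libraries the implied total was above that sum. Relative to the reads in listed genes, the FPKM of si-CDCP1 replicate 3 are therefore scaled higher than in the others, and the reason was not tested. Its summed FPKM, 294437, was not above the 294678 of si-CDCP1 replicate 1. The sums were 286916 to 294678 in si-CDCP1 and 280056 to 282051 in si-NC. With the sums made equal, the median log2 difference over all genes tested was -0.039, against 0.0077 for the FPKM as deposited. The siRNA target Cdcp1 had 0, 5 and 0 reads in the si-CDCP1 libraries and 2, 2 and 1 reads in the si-NC libraries, which is too few to check the labels. Of 10 smooth muscle markers, 4 averaged 1 FPKM or more: Acta2 (46.8 ± 15.5 FPKM in si-CDCP1 and 37.4 ± 1.95 FPKM in si-NC), Tpm2 (22.7 FPKM in si-CDCP1 and 22.8 FPKM in si-NC), Cald1 (16.6 FPKM in si-CDCP1 and 15.3 FPKM in si-NC) and Smtn (8.84 FPKM in si-CDCP1 and 8.26 FPKM in si-NC). The list summed to 83.2 to 114 FPKM in si-CDCP1 and 83.3 to 89.3 FPKM in si-NC. Des, Lmod1 and Myocd averaged under 1 FPKM, and the contractile markers Tagln, Myh11 and Cnn1 did not exceed 0.216 FPKM in any library, so that the markers bear out the label only in part. The si-CDCP1 replicate 3 library stood apart: its Pearson correlation with the other 5 on the log2 scale was 0.979 to 0.983, against highest correlations of 0.990 to 0.991 for each of the others. It was the highest of the 6 libraries for 34.0% of the 12080 genes tested and the lowest for 30.0%, and the log2 differences of the 9 genes and of the pathway genes named below are therefore given with and without it.

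Irf7 had the clearest separation of the groups among the 9 genes, which its choice by a low p-value favours. Its level was 52.9, 52.5 and 51.7 FPKM in si-CDCP1 replicates 1, 2 and 3, against 76.3, 73.7 and 70.8 FPKM in si-NC replicates 1, 2 and 3. The si-CDCP1 libraries lay close together and all below the lowest si-NC library, as they did for 10.6% of all genes tested. The group means were 52.4 ± 0.578 FPKM in si-CDCP1 and 73.6 ± 2.76 FPKM in si-NC (SD, n = 3 each), which is a ratio of 0.711 and a log2 difference of -0.48 (SE 0.047). Without si-CDCP1 replicate 3 the ratio was 0.716 and the log2 difference -0.47. These values rest on 3457, 3231 and 3049 reads in si-CDCP1 and 5791, 4540 and 4782 reads in si-NC. In bulk cultures such as these, fewer cells that express a gene and less RNA per cell cannot be told apart.

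The gene (ENSMUSG00000025498) lies on mm10 chromosome 7, 141262706 to 141266481, on the minus strand. Its length in the table, 3776 bases, equals its whole span, introns included, whereas the lengths of the other 8 are shorter than their spans. This bears on its level relative to the other genes and not on the difference between the groups. It overlaps 45 bases of Phrf1 on the opposite strand, a gene that averaged 8.05 FPKM in si-CDCP1 and 8.29 FPKM in si-NC.

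**Figure D1:**
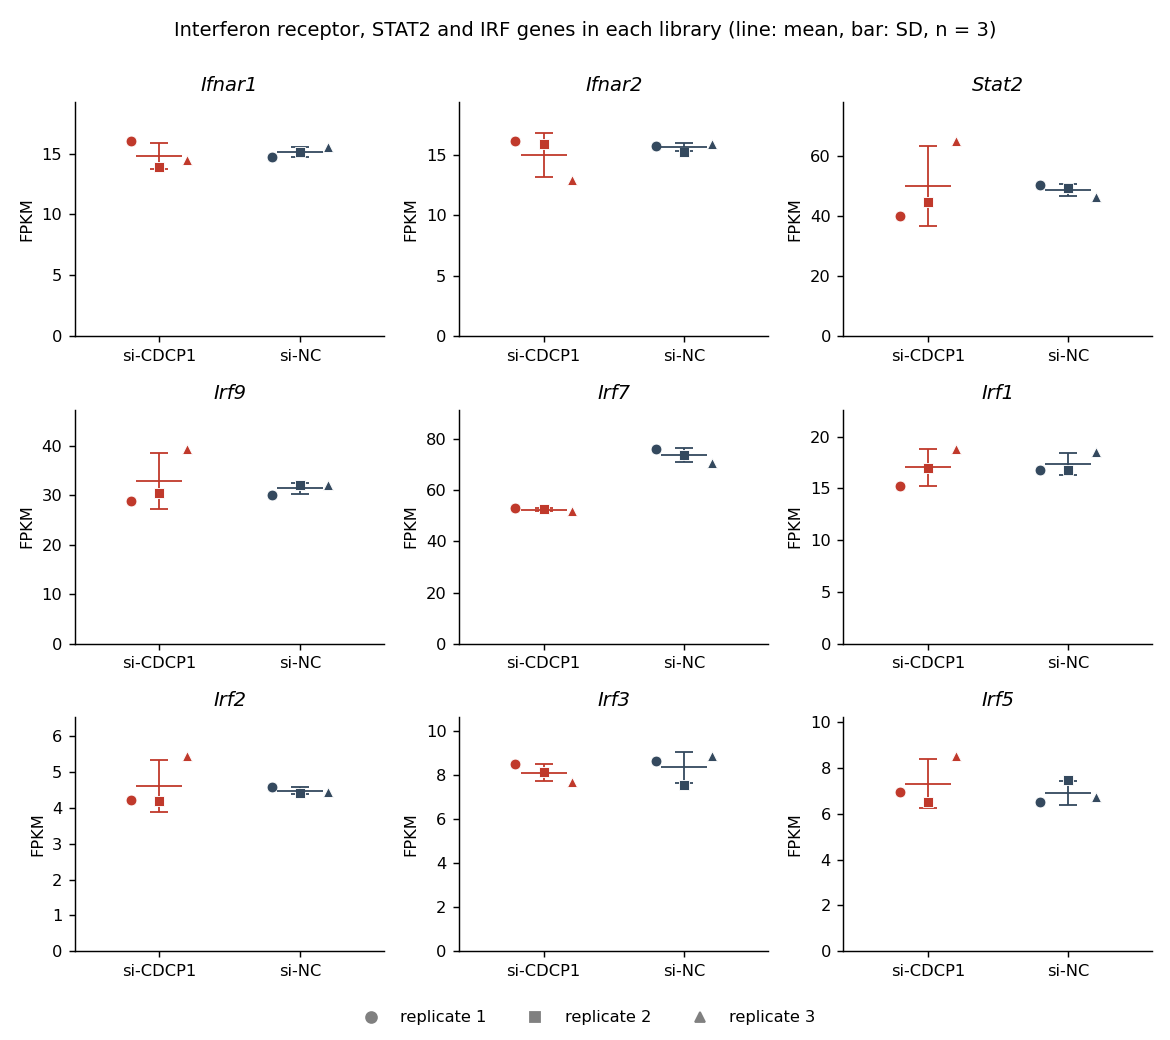
FPKM (vertical axes, from 0) of the 9 genes in each library, si-CDCP1 on the left and si-NC on the right of each panel; symbols mark the replicate number, horizontal lines the mean and bars the SD (n = 3). Irf7 alone, which was chosen for its low p-value, has no overlap between the groups. It lies at 51.7 to 52.9 FPKM in si-CDCP1 and 70.8 to 76.3 FPKM in si-NC. For Stat2 the si-CDCP1 replicate 3 library lies at 65.2 FPKM, above all others.

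The 8 genes other than Irf7 were tested with limma's moderated test over the 12080 genes that averaged 1 FPKM or more, two-sided, with Benjamini-Hochberg (BH) adjustment. At an adjusted p of 0.05, 0 of the 8 were called, where 0% of all genes tested (0 of 12080) were called. At an unadjusted p under 0.05, 0 of the 8 stood out, against 14.3% of all genes. In 0 of the 8 did the groups separate without overlap, against 25.0% of all genes. Limma voom on read counts recovered from the FPKM called 0 of the 8 as well, against 0.0348% of 14365 genes, with 0 of the 8 at an unadjusted p under 0.05, where 14.8% of all genes were. Of the 8 log2 differences, 4 were positive and 4 negative, with a median of -0.012, and the median over all genes tested was 0.0077. The BH-adjusted p-values of the 8 lay between 0.741 and 0.990.

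The receptor chains were measured at similar levels in both groups, with the groups overlapping. Ifnar1, the chain that binds TYK2, was at 16.1, 13.9 and 14.4 FPKM in si-CDCP1 replicates 1, 2 and 3 and at 14.7, 15.1 and 15.5 FPKM in si-NC replicates 1, 2 and 3. The si-CDCP1 group held both the highest and the lowest library. The log2 difference was -0.030 (SE 0.064), with a 95% interval from -0.18 to 0.12 (limma, BH-adjusted p = 0.838), and -0.015 (interval -0.17 to 0.14) without si-CDCP1 replicate 3.

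Ifnar2, the chain that binds JAK1 and carries most of the affinity for interferon, was at 16.2, 15.9 and 12.9 FPKM in si-CDCP1 replicates 1, 2 and 3 and at 15.7, 15.3 and 15.9 FPKM in si-NC replicates 1, 2 and 3. The si-CDCP1 replicate 3 library was below the other 5, which lay between 15.3 and 16.2 FPKM. The log2 difference of -0.064 (SE 0.087, interval -0.27 to 0.14, limma BH-adjusted p = 0.741) turned to 0.033 (interval -0.065 to 0.13) without that library. The ratio of Ifnar1 to Ifnar2 within a library was 0.997 ± 0.121 in si-CDCP1 and 0.967 ± 0.0305 in si-NC (SD, n = 3 each). Ifnar1 lies on mm10 chromosome 16 from 91485238 to 91507441 and Ifnar2 on the same chromosome from 91372783 to 91405589.

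Stat2 was the gene whose result depended most on a single library. It was at 40.1, 44.8 and 65.2 FPKM in si-CDCP1 replicates 1, 2 and 3 and at 50.4, 49.4 and 46.4 FPKM in si-NC replicates 1, 2 and 3. Of the si-CDCP1 libraries, replicates 1 and 2 were below every si-NC library and replicate 3 above every one. The means were 50.0 ± 13.3 FPKM in si-CDCP1 and 48.8 ± 2.05 FPKM in si-NC (SD, n = 3 each), which is a log2 difference of 0.0067 (SE 0.16, interval -0.38 to 0.39, limma BH-adjusted p = 0.990).

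Without si-CDCP1 replicate 3, the Stat2 log2 difference was -0.20 (SE 0.060, interval -0.34 to -0.051). The limma p for it was 0.0163 before and 0.205 after BH adjustment. It was the only one of the 8 at an unadjusted p under 0.05 in that fit, against 16.5% of all genes, and 0 of the 8 were called, as were 0 of all 12107 genes tested. Limma voom on the recovered reads of the same 5 libraries, an alternative chosen after the data had been seen, gave -0.20 (SE 0.049) and a BH-adjusted p of 0.0299. Stat2 was the only one of the 8 genes called there, against 3.46% of all 14267 genes tested. Over all 17 alternatives the adjusted p of Stat2 ranged from 0.0299 to 0.995.

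Irf9, the DNA-binding partner of STAT2, was likewise highest in si-CDCP1 replicate 3, by a smaller distance, but its other 2 si-CDCP1 libraries overlapped si-NC. It was at 28.9, 30.6 and 39.5 FPKM in si-CDCP1 replicates 1, 2 and 3 and at 30.1, 32.1 and 32.1 FPKM in si-NC replicates 1, 2 and 3. The lowest of the 6 libraries was si-CDCP1 replicate 1. The log2 difference was 0.054 (SE 0.11, interval -0.21 to 0.32, limma BH-adjusted p = 0.837) and, without si-CDCP1 replicate 3, -0.079 (interval -0.19 to 0.036). Stat2 lies on mm10 chromosome 10 (128270559 to 128292849) and Irf9 on chromosome 14 (55603571 to 55610030), where it overlaps 123 bases of Rnf31 on the same strand.

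The ratios between these genes within each library describe Irf7 relative to Stat2 and Irf9. The ratio of Irf7 to Stat2, in FPKM, was 1.32, 1.17 and 0.794 in si-CDCP1 replicates 1, 2 and 3 and 1.51, 1.49 and 1.52 in si-NC replicates 1, 2 and 3. That of Irf7 to Irf9 was 1.83, 1.72 and 1.31 in the same si-CDCP1 libraries and 2.54, 2.30 and 2.20 in the si-NC libraries. Both ratios were lower in each si-CDCP1 library than in any si-NC library. The lowest of each was in si-CDCP1 replicate 3, where Stat2 and Irf9 were at their highest and Irf7 at its lowest. The ratio of Stat2 to Irf9 overlapped between the groups, at 1.50 ± 0.134 in si-CDCP1 and 1.55 ± 0.115 in si-NC (SD, n = 3 each). Irf7 was chosen for its difference, which favours lower ratios of Irf7 to other genes in si-CDCP1, so no test was made of these ratios.

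**Figure D2:**
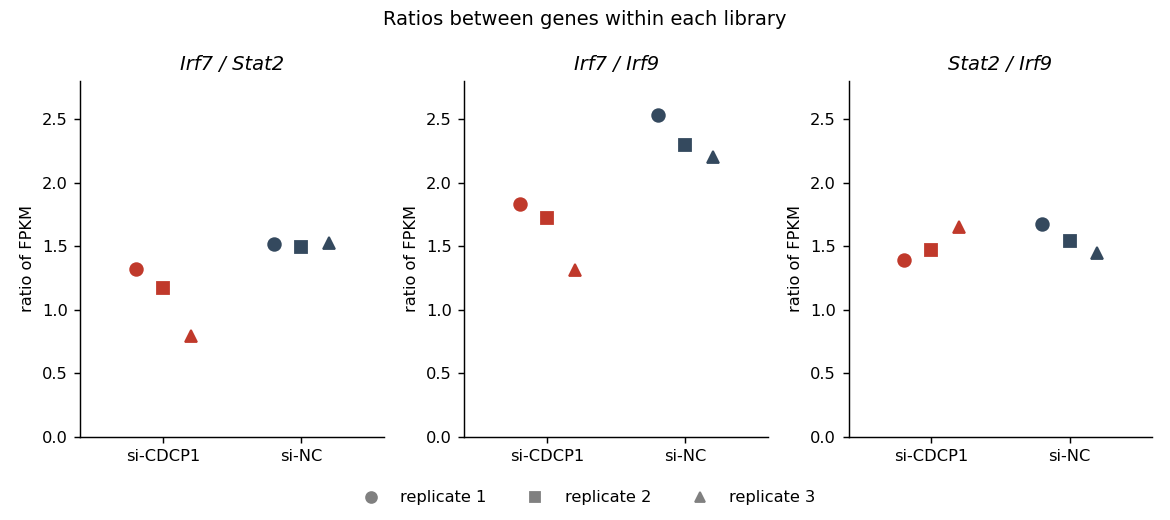
Ratios of FPKM (vertical axes, from 0, no unit) between pairs of genes within each library, si-CDCP1 on the left and si-NC on the right; symbols mark the replicate number. The Irf7 to Stat2 ratio lies between 0.794 and 1.32 in si-CDCP1 and between 1.49 and 1.52 in si-NC, while the Stat2 to Irf9 ratio overlaps between the groups.

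Irf1 and Irf2 bind the same response element, IRF1 as an activator induced by interferon-gamma and IRF2 mostly as its antagonist. Irf1 was at 15.2, 17.0 and 18.8 FPKM in si-CDCP1 replicates 1, 2 and 3 and at 16.7, 16.8 and 18.6 FPKM in si-NC replicates 1, 2 and 3. The groups overlapped, and the si-CDCP1 group held both ends of the range. The log2 difference was -0.031 (SE 0.084, interval -0.23 to 0.17, limma BH-adjusted p = 0.880), or -0.10 (interval -0.27 to 0.062) without si-CDCP1 replicate 3.

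Irf2 was at 4.22, 4.18 and 5.44 FPKM in si-CDCP1 replicates 1, 2 and 3 and at 4.58, 4.40 and 4.43 FPKM in si-NC replicates 1, 2 and 3. As with Stat2, si-CDCP1 replicates 1 and 2 were below every si-NC library and replicate 3 above every one. With all libraries the log2 difference was 0.029 (SE 0.096, interval -0.20 to 0.26, limma BH-adjusted p = 0.904), and without si-CDCP1 replicate 3 it was -0.074 (interval -0.21 to 0.064). Stat2 and Irf2 were the 2 of the 8 genes whose groups separated without that library, against 36.0% of all 12107 genes tested there. The ratio of Irf1 to Irf2 was 3.71 ± 0.316 in si-CDCP1 and 3.88 ± 0.274 in si-NC (SD, n = 3 each).

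Irf3, the constitutive factor that acts directly downstream of TBK1, was at 8.49, 8.11 and 7.69 FPKM in si-CDCP1 replicates 1, 2 and 3 and at 8.60, 7.54 and 8.84 FPKM in si-NC replicates 1, 2 and 3. All si-CDCP1 libraries lay within the range of si-NC. The log2 difference was -0.034 (SE 0.073, interval -0.21 to 0.14, limma BH-adjusted p = 0.840), and -0.0016 without si-CDCP1 replicate 3 (interval -0.18 to 0.18).

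Irf5, which acts downstream of Toll-like receptors in the induction of inflammatory cytokines, was at 6.94, 6.50 and 8.51 FPKM in si-CDCP1 replicates 1, 2 and 3 and at 6.49, 7.49 and 6.74 FPKM in si-NC replicates 1, 2 and 3. The si-CDCP1 replicate 3 library was again the highest. The log2 difference was 0.068 (SE 0.10, interval -0.17 to 0.30, limma BH-adjusted p = 0.769) and -0.033 (interval -0.20 to 0.14) without that library. Irf3 overlaps 1065 bases of Bcl2l12, and Irf5 1045 bases of Tnpo3, both on the opposite strand. The strand setting of the counting is not given in the sources used here, so reads in those stretches cannot be assigned with certainty. Tnpo3 had 16919 reads over the 6 libraries and Irf5 2127.

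**Figure D3:**
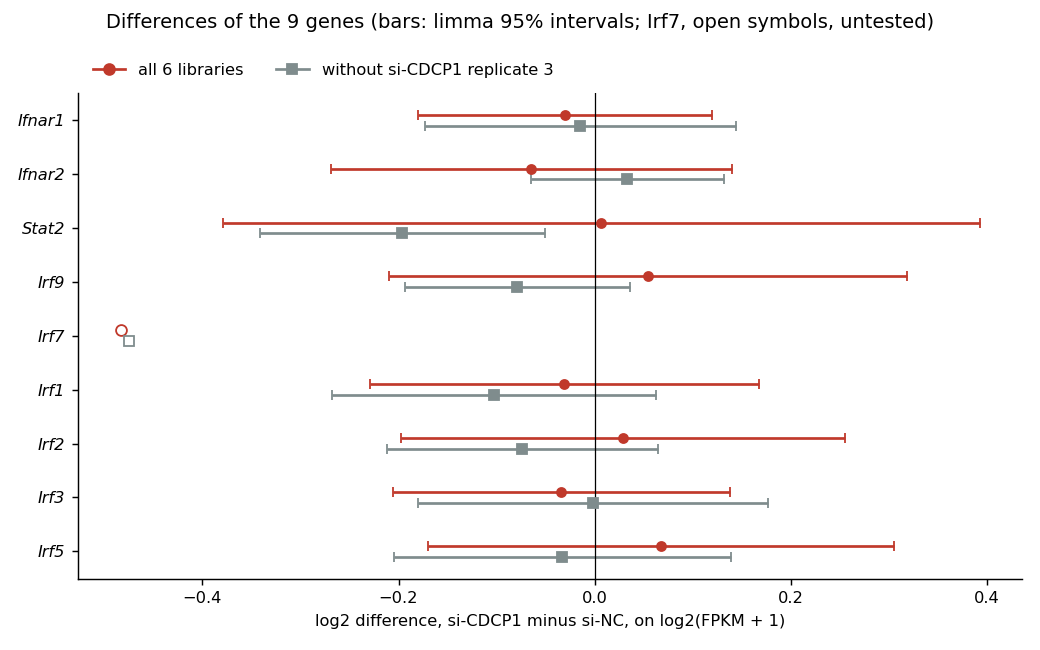
Log2 differences (horizontal axis, si-CDCP1 minus si-NC on log2(FPKM + 1)) of the 9 genes, with limma 95% intervals, from all 6 libraries (circles) and without si-CDCP1 replicate 3 (squares). Irf7, which was not tested, is drawn with open symbols and no interval at -0.48 and -0.47; for Stat2 the value is 0.0067 with all libraries and -0.20 without that one.

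Ordered by mean FPKM over the 6 libraries, the genes ran from Irf7 (63.0) through Stat2 (49.4), Irf9 (32.2), Irf1 (17.2), Ifnar2 (15.3), Ifnar1 (15.0), Irf3 (8.21) and Irf5 (7.11) to Irf2 (4.54). The ranges over the libraries were separate between Stat2 and Irf9, between Irf9 and Irf1, between Ifnar1 and Irf3 and between Irf5 and Irf2. The other 4 neighbouring pairs overlapped in range, although in each of them the order held in 5 of 6 libraries. Irf7 was above Stat2 in every library except si-CDCP1 replicate 3. Among the 12080 genes tested, the mean level of Irf7 was at percentile 93.9, that of Stat2 at 91.7 and that of Irf2 at 30.0.

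The spread between replicates differed between the groups and between the genes. The coefficient of variation of Stat2 was 26.6% in si-CDCP1 and 4.21% in si-NC, where counting alone gives about 1.41%. For Irf9 it was 17.3% in si-CDCP1 and 3.69% in si-NC. Irf7 had the smallest spread of the 9 in si-CDCP1, 1.10%, with 3.75% in si-NC and a counting error of about 1.55%. Its choice by a low p-value favours a small spread, and 1.10% is below the counting error, so the rank is a description only. Irf5, with 308 to 386 reads a library in si-CDCP1 and 350 to 379 in si-NC, had a counting error of about 5.31%, the largest of the 9.

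The si-CDCP1 replicate 3 library moved the members unequally. Relative to the mean of the other 5 libraries it was at 1.41 times for Stat2, 1.28 times for Irf9, 1.25 times for Irf2, 1.25 times for Irf5 and 1.12 times for Irf1. It was at 0.925 times for Irf3, 0.958 times for Ifnar1 and 0.816 times for Ifnar2. Of the 8 genes, 5 were highest in this library, against 34.0% of all genes, and 1, Ifnar2, was lowest, against 30.0%. Why this library deviated was not tested.

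**Figure D4:**
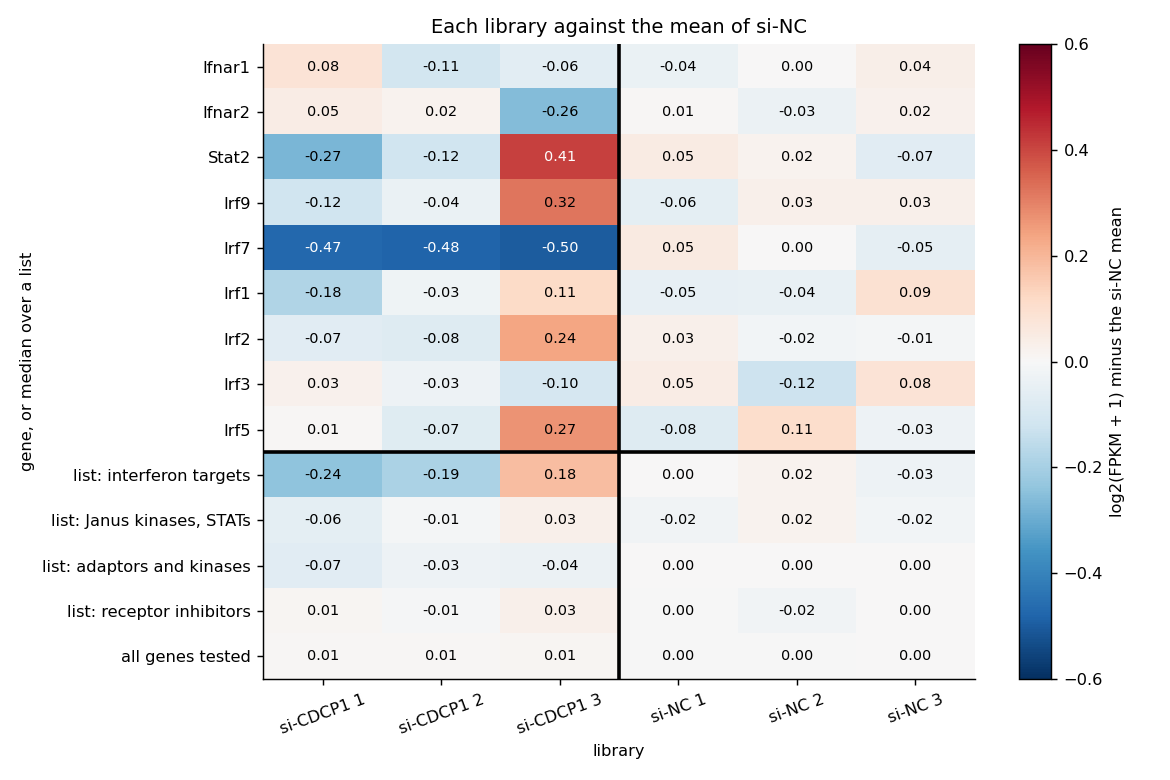
Difference of each library from the si-NC mean on log2(FPKM + 1) (colour and printed value) for the 9 genes and, below the line, the median over lists of pathway genes and over all genes tested; si-CDCP1 libraries are left of the vertical line and si-NC libraries right of it. Irf7 is at -0.47, -0.48 and -0.50 in the si-CDCP1 libraries, whereas Stat2 is at -0.27, -0.12 and 0.41.

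Interferon-stimulated target genes, such as those of the oligoadenylate synthetase and IFIT families, are the output of the pathway. Of 33 tested, 0 were called by limma with BH adjustment; at an unadjusted p under 0.05, 8 were lower and 0 higher, against 5.31% lower and 8.94% higher over all genes. Voom on the recovered reads of all 6 libraries called 2 of 34 as lower, Oas2 and Oas3, against 0.0348% of all 14365 genes, and 0 as higher. The median log2 difference was -0.065, with 22 negative and 11 positive, and 21 of the 33 were highest in si-CDCP1 replicate 3, against 34.0% of all genes. In that library the median of the list stood 0.185 above the si-NC mean, and in si-CDCP1 replicates 1 and 2 it stood at -0.24 and -0.19. Without it, 30 of 32 were negative, the median was -0.21, and 25 had an unadjusted p under 0.05 on the lower side, against 5.78% of all genes. Voom on those 5 libraries called 18 of 34 as lower, against 1.06% of all genes, and 0 as higher, against 2.40%. Some of these genes are known to have low p-values in this comparison from earlier work on the same data, so the list is no independent evidence of its direction.

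Oas2 and Oas3, which make the second messenger of RNase L when they bind double-stranded RNA, had the smallest p-values of the list. Oas2 was at 16.4 ± 0.659 FPKM in si-CDCP1 and 28.6 ± 1.67 FPKM in si-NC (limma, BH-adjusted p = 0.0505; voom, 0.00252). Its log2 difference was -0.76, and -0.78 without si-CDCP1 replicate 3. Oas3 was at 4.73 ± 0.421 FPKM in si-CDCP1 and 7.89 ± 0.551 FPKM in si-NC (SD, n = 3 each; limma BH-adjusted p = 0.142; voom, 0.0237), a log2 difference of -0.63, and -0.69 without that library. Like Irf7, both were lower in every si-CDCP1 library than in any si-NC library, which holds for 10.6% of all genes tested. Irf7 was chosen for its low p-value, and Oas2 and Oas3 are named for theirs. Such a choice favours genes whose groups separate, so this is a description only.

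Interferon transcripts themselves were near 0. None of 20 ligand genes reached a mean of 1 FPKM, and 14 had no read in any library. Ifnb1, which encodes interferon beta, had 3, 0 and 5 reads in si-CDCP1 replicates 1, 2 and 3 and 0, 1 and 0 reads in si-NC replicates 1, 2 and 3. A floor of 3 reads corresponds to 0.199 to 0.256 FPKM for this gene, and no fold is given at this depth. Over the list, the libraries held 17 reads in si-CDCP1 and 8 in si-NC.

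Among the kinases and the other STAT genes limma called 0 of 9 with BH adjustment, against 0% of all genes. At an unadjusted p under 0.05, 0 were higher and 1 lower, against 8.94% higher and 5.31% lower over all genes. Voom called 0 of 9 with all libraries, against 0.0348% of all genes. Without si-CDCP1 replicate 3 it called 1 of 9, as lower, against 1.06% of all genes. The list had a median log2 difference of -0.011 (-0.035 without si-CDCP1 replicate 3). Jak1 averaged 34.5 ± 2.73 FPKM in si-CDCP1 and 32.2 ± 0.411 FPKM in si-NC, a log2 difference of 0.095 (0.036 without that library). Tyk2 averaged 4.57 ± 0.811 FPKM in si-CDCP1 and 5.21 ± 0.0626 FPKM in si-NC, a log2 difference of -0.17 (-0.060 without it). The smallest p in this list belonged to Jak3, a kinase of cytokine receptors with the common gamma chain, at 1.62 ± 0.167 FPKM in si-CDCP1 and 2.19 ± 0.0780 FPKM in si-NC (log2 difference -0.29, and -0.25 without that library; limma, BH-adjusted p = 0.290).

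Of the other interferon receptor chains 0 of 4 were called by limma, against 0% of all genes, with 0 at an unadjusted p under 0.05, against 14.3%. Voom called 0 of 4 with all libraries, against 0.0348% of all genes, and 0 of 4 without si-CDCP1 replicate 3, against 3.46%. Ifngr2 of the interferon-gamma receptor averaged 15.8 ± 1.75 FPKM in si-CDCP1 and 13.8 ± 0.679 FPKM in si-NC, a log2 difference of 0.18 (0.095 without that library). Ifnlr1 of the interferon-lambda receptor averaged 1.41 ± 0.401 FPKM in si-CDCP1 and 1.84 ± 0.345 FPKM in si-NC, a log2 difference of -0.24 (-0.11 without it).

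Of the adaptors and kinases that act upstream of IRF3, IRF5 and IRF7, 0 of 14 tested were called by limma with BH adjustment. At an unadjusted p under 0.05, 1 was higher and 3 lower, against 8.94% higher and 5.31% lower over all genes. Voom called 0 of 15 with all libraries, against 0.0348% of all genes, and 0 of 15 without si-CDCP1 replicate 3, against 3.46%. Tmem173, which encodes the DNA-sensing adaptor STING, averaged 12.9 ± 1.32 FPKM in si-CDCP1 and 15.9 ± 1.48 FPKM in si-NC (log2 difference -0.28, and -0.21 without that library; limma, BH-adjusted p = 0.305). Tank, a scaffold of the TBK1 complex, averaged 15.5 ± 2.08 FPKM in si-CDCP1 and 12.9 ± 0.176 FPKM in si-NC (log2 difference 0.24, and 0.14 without it; limma, BH-adjusted p = 0.321). Tbk1 averaged 17.3 ± 0.755 FPKM in si-CDCP1 and 16.8 ± 0.758 FPKM in si-NC (SD, n = 3 each), a log2 difference of 0.041 (0.0097 without it). The median log2 difference of this list was -0.041, and -0.040 without si-CDCP1 replicate 3.

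Of the inhibitors of the receptor pathway 0 of 11 tested were called by limma with BH adjustment, against 0% of all genes. At an unadjusted p under 0.05, 2 were higher and 0 lower, against 8.94% higher and 5.31% lower over all genes. Voom called 0 of 13 with all libraries, against 0.0348% of all genes. Without si-CDCP1 replicate 3 it called 1 of 13, Usp18, as lower, against 1.06% of all genes. The list had a median log2 difference of 0.014 (-0.011 without si-CDCP1 replicate 3). Usp18, an interferon-induced protein that displaces JAK1 from IFNAR2, was at 77.3 ± 29.7 FPKM in si-CDCP1 and 69.7 ± 2.10 FPKM in si-NC, and its log2 difference of 0.085 was -0.21 without si-CDCP1 replicate 3 (limma, BH-adjusted p = 0.0948; voom, 0.0108). Ptpn2, a phosphatase of Janus kinases, averaged 17.1 ± 1.72 FPKM in si-CDCP1 and 14.5 ± 0.232 FPKM in si-NC (log2 difference 0.22, and 0.15 without that library; limma, BH-adjusted p = 0.300). Socs2, a suppressor of cytokine signalling, averaged 5.57 ± 0.698 FPKM in si-CDCP1 and 4.52 ± 0.115 FPKM in si-NC (log2 difference 0.25, and 0.16 without it; limma, BH-adjusted p = 0.313).

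**Figure D5:**
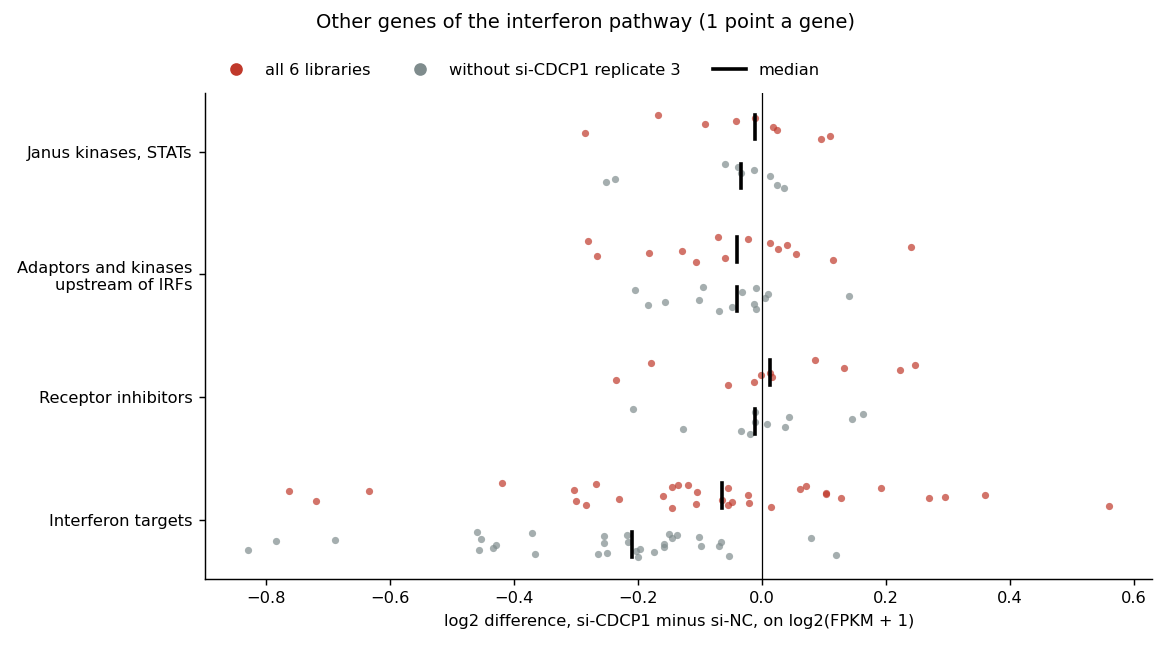
Log2 differences (horizontal axis, si-CDCP1 minus si-NC on log2(FPKM + 1)) of the tested genes of 4 pathway lists, 1 point a gene, with all 6 libraries and without si-CDCP1 replicate 3; black bars are medians. The median of the interferon targets is -0.065 with all libraries and -0.21 without that one, and those of the other lists lie between -0.041 and 0.014.

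Irf4 and Irf8, members of the IRF family that act mainly in blood cells, were near 0. Irf4 had 5 reads over the si-CDCP1 libraries and 7 over the si-NC libraries, and Irf8 had 13 reads in si-CDCP1 and 17 in si-NC. Of the genes of IRF2-binding proteins, which act as co-regulators, 0 of 3 were called by limma with BH adjustment, against 0% of all genes. At an unadjusted p under 0.05, 1 was higher and 0 lower, against 8.94% higher and 5.31% lower over all genes. Voom called 0 of 3 with all libraries, against 0.0348% of all genes. Without si-CDCP1 replicate 3 it called 1 of 3, Irf2bp2, as higher, against 2.40% of all genes. Irf2bp2 averaged 23.2 ± 1.39 FPKM in si-CDCP1 and 18.8 ± 1.63 FPKM in si-NC, a log2 difference of 0.29 (limma, BH-adjusted p = 0.267) and, without that library, 0.25 (limma, BH-adjusted p = 0.191; voom, 0.0230). Irf2bpl averaged 29.4 ± 1.67 FPKM in si-CDCP1 and 27.3 ± 2.14 FPKM in si-NC (SD, n = 3 each), a log2 difference of 0.10 (0.15 without that library).

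Markers of cells in which IRF5 or IRF7 is constitutively high were mostly low, except Cd14. Of 9 macrophage and leukocyte markers, Adgre1, Itgam and Tyrobp had no read in any library, and Ptprc had 0 reads in si-CDCP1 and 6 in si-NC. The summed level was 14.8 to 16.2 FPKM in si-CDCP1 and 13.8 to 16.2 FPKM in si-NC. Most of it was Cd14 (means of 12.8 FPKM in si-CDCP1 and 11.9 FPKM in si-NC). Lyz2 averaged 2.11 FPKM in si-CDCP1 and 1.65 FPKM in si-NC, and Cd68 0.822 FPKM in si-CDCP1 and 1.27 FPKM in si-NC. Of 6 plasmacytoid dendritic cell markers, the defining Siglech had no read in any library, and the sum was 0.780 to 0.816 FPKM in si-CDCP1 and 0.303 to 0.475 FPKM in si-NC. Most of that sum was Spib, with means of 0.666 FPKM in si-CDCP1 and 0.283 FPKM in si-NC (94 and 43 reads). The endothelial list summed to 0.802 to 0.874 FPKM in si-CDCP1 and 0.676 to 0.742 FPKM in si-NC, with Cdh5 and Tie1 at 0. The 6 fibroblast markers summed to 383 to 438 FPKM in si-CDCP1 and 378 to 419 FPKM in si-NC, most of it Col1a1 (means of 278 FPKM in si-CDCP1 and 279 FPKM in si-NC) and Col1a2 (114 FPKM in si-CDCP1 and 104 FPKM in si-NC). Of the others Pdgfra averaged 8.69 FPKM in si-CDCP1 and 10.4 FPKM in si-NC, Dcn 1.26 FPKM in si-CDCP1 and 1.27 FPKM in si-NC, and Lum and Pdpn had 1 read each over all libraries. The part of these marker differences in the results above was not tested.

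The genes whose profile over the 6 libraries was most like that of a member were found by the root mean square (RMS) difference of log2(FPKM + 1) after each gene's mean was subtracted. Nearest to Irf7 were Fbxo48 (0.054), Gm4070 (0.065), Zbp1 (0.065), Rps18-ps3 (0.072) and Btn2a2 (0.077), against a median of 0.27 over all genes tested. Their ratios of si-CDCP1 to si-NC means were 0.671, 0.578, 0.735, 0.718 and 0.573 in that order, against 0.711 for Irf7. On log2(FPKM + 1) weakly expressed genes such as Gm4070 and Btn2a2 can match Irf7 although their ratios are lower. Zbp1, a sensor of Z-form nucleic acid, averaged 14.3 ± 0.769 FPKM in si-CDCP1 and 19.5 ± 0.337 FPKM in si-NC, a log2 difference of -0.42 (-0.46 without si-CDCP1 replicate 3). Nearest to Stat2 was Parp9 (0.028), an interferon-induced ADP-ribosyltransferase, followed by Tbx20, Prc1, Rnf213 and Lancl2, against a median of 0.23. Nearest to Irf9 were Prpf38b (0.023), Myef2, Morc2a, Btbd10 and Tmem140, against a median of 0.17. These are descriptions over 6 libraries, and the profiles of Stat2 and Irf9 are dominated by si-CDCP1 replicate 3. As Irf7 was chosen for its difference between the groups, genes matched to its profile share that difference by the way they were found.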

How the data were processed

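RNA sequencing was done on 6 libraries, 3 si-CDCP1 and 3 si-NC, from total RNA with a kit for polyadenylated RNA, per the labels' protocols. The authors deposited 1 table of FPKM with gene lengths and mouse Ensembl identifiers, per the file headers; the build is mm10, per the submitters' processing notes. The aligner, the counting tool and its handling of strand and of multi-mapped reads are each not given in the sources used here. Whole reads were recovered from the FPKM steps: 100% of values above 0, times gene length, lay within 0.01 of a whole multiple of 1 step per library. Groups were compared on log2(FPKM + 1), for genes that averaged 1 FPKM or more, with limma 3.58.1 (R 4.3.3; intensity trend, two-sided, BH adjustment over all genes, threshold 0.05). Voom on the recovered reads (at least 10 reads in 3 libraries, library sizes from the FPKM steps) was an alternative. The code was tested on simulated data. No pair of replicates was a duplicate (chi-square per degree of freedom at least 2.98). A floor of 3 reads covers only counting error. The members, lists and tests were chosen with earlier results of these data known. All 9 members are named; of each list, the 2 genes with the smallest p, since limma called none, with Jak1, Tyk2, Usp18, Tbk1 and Ifnb1 in any case; and the 5 genes nearest to Irf7, Irf9 and Stat2. Other genes named as examples were chosen after their values were seen. Some genes are not reported here.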

Additional observations from a re-analysis of the deposited data

How the results depend on the processing

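Of all genes tested, 0 were called with all 6 libraries, with other pseudocounts (0.1 and 0.01 FPKM) and without an intensity trend. The count was 7 with no filter, 4 with a mean of at least 5 FPKM, 1 with equal FPKM sums, 2 with quantile normalisation, 5 with voom, 0 to 1 with each library left out in turn, 493 with voom without si-CDCP1 replicate 3 and 865 with library weights, which were 0.165 for si-CDCP1 replicate 3 and 0.600 to 5.11 for the others. Of the 8 genes other than Irf7, 0 were called under every alternative except voom without si-CDCP1 replicate 3, which called 1, Stat2. The log2 difference of Irf7 lay between -0.57 and -0.46 over 17 alternatives. The signs of the other 8 were not stable, and the cause was not tested. With equal FPKM sums Stat2 was at -0.047 and Irf2 at -0.016; with quantile normalisation Stat2 was at -0.066 and Irf9 at -0.00030. With library weights Ifnar2 was at 0.013, Stat2 at -0.12, Irf9 at -0.036, Irf2 at -0.070 and Irf5 at -0.049. With voom without si-CDCP1 replicate 3 Ifnar2 was at 0.035, Stat2 at -0.20, Irf9 at -0.080, Irf2 at -0.092 and Irf5 at -0.029. With each library left out in turn the range was -0.086 to 0.0097 for Ifnar1, -0.12 to 0.033 for Ifnar2, -0.20 to 0.15 for Stat2, -0.079 to 0.14 for Irf9, -0.10 to 0.043 for Irf1, -0.074 to 0.083 for Irf2, -0.097 to 0.0057 for Irf3 and -0.033 to 0.14 for Irf5.

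With the replicate number as a block, 1 gene was called over all genes and 0 of the 8. Deviations of same-numbered libraries correlated at -0.020, 0.026 and 0.022, and those of differently numbered libraries at -0.047 to 0.033. The numbers thus gave no sign of pairing, but these correlations cannot exclude it. With 3 libraries a group, and counting errors of up to 5.31% for these genes, the intervals above bound each difference; they do not show that the groups are alike.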
